A study of Mus musculus with 48 samples.

Results

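Inflammatory monocyte-macrophages that carried messenger RNA of Nos2 or Inhba were set apart in mouse brain tumors and described gene by gene. These cells were chosen by measured values alone. A member had at least 500 detected genes, at least 5 unique molecular identifiers (UMIs) of Lyz2 and at least 2 UMIs of Nos2 and Inhba summed. It also had no UMI of P2ry12, Tmem119, Cd3e, Cd3d or Cd3g, and at most 1 UMI of Mki67 and Top2a summed. In the whole-tumor mix 336 cells met the rule, of 8726 cells with at least 500 genes and 9172 cells in all. In the CD11b+ table it was met by 123 of 5724 cells.

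Nos2 encodes the inducible nitric oxide synthase, which makes nitric oxide from arginine. Inhba encodes a subunit of activin A, a signalling protein of the TGF-beta family. Clec4e, F10 and Fpr2, the other markers of the population, encode a C-type lectin receptor, coagulation factor X and a formyl peptide receptor.

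GL261 is a mouse glioma cell line. Before they were implanted in the brains of male C57BL/6 mice of 6 weeks, its cells had received a short hairpin RNA. It was directed at Selp, the gene of P-selectin (shSELP), or served as the negative control (shNC). The comparison asks whether cells of the tumor differed once the tumor cells carried the Selp hairpin. Equal amounts of CD11b+ cells, CD45+ cells and remaining cells were joined in the mix, so that shares of cells are those of a blend made at the bench.

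The labels gave 48 samples, 8 sequencing entries for each of 6 libraries. Each group had 2 libraries in the mix and 1 library of CD11b+ cells, so no test was possible in the latter. The paper's methods state that 3 brains were pooled per group and collected at day 17, whereas the labels give day 16 for the mix and day 21 for the CD11b+ cells. Labels name version 2 of the droplet kit and the methods version 3. A description line of 7 of the 8 CD11b+ shSELP entries names the negative control, and the group was taken from the other labels and the cell names. Nothing states that libraries of the same group were made from separate animals, so the p-values measure spread between libraries.

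Depth differed between libraries. The mix libraries shNC 1, shNC 2, shSELP 1 and shSELP 2 held 22945972, 22626413, 17398121 and 25589350 UMIs in 2289, 2297, 2293 and 2293 cells. Members numbered 71, 100, 56 and 109 in the same order, with 640589, 1034132, 561426 and 1523535 UMIs in all. The median member had 8209, 8829.5, 8604.5 and 12742 UMIs, so shSELP 2 was the deepest. The CD11b+ libraries held 12628177 UMIs for shNC and 11445676 for shSELP, each in 2862 cells. Their 41 and 82 members had medians of 4002 and 2868 UMIs. Values are given in this order of libraries, as counts per 1000000 UMIs (CPM) of the members of a library.

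Selp itself was nearly absent from the population. Members held 1, 1, 12 and 0 UMIs of Selp in the 4 mix libraries, and all 12 of shSELP 1 lay in 1 cell. CD11b+ members held 0 in both libraries. Over the cells with at least 500 genes of each mix library Selp had 17, 25, 21 and 21 UMIs, so the target of the hairpin could not be followed at this depth. Selplg, the gene of the P-selectin ligand PSGL-1, had 89.0, 120, 135 and 121 CPM in mix members and 67.1 and 63.2 CPM in CD11b+ members.

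shSELP 1 stood far apart from the other mix libraries, and over the cells with at least 500 genes, though not in members for Ttr and the vessel genes, shSELP 2 lay above both shNC libraries to a smaller degree. Ttr, a gene of the choroid plexus, had 8813 CPM over such cells of shSELP 1 and 154, 447 and 801 CPM in shNC 1, shNC 2 and shSELP 2. Every one of its 56 members had a UMI of Ttr, against 12 of 71, 41 of 100 and 67 of 109 members of the others. The vessel genes Sele, Selp, Cldn5 and Kdr summed to 92 UMIs in its members and to 3, 23 and 8 in the others, and 60 of the 92 lay in 1 cell. Over cells with at least 500 genes these vessel genes had 21.8, 41.6, 423 and 94.1 CPM, and S100a8 and S100a9 had 144, 139, 1491 and 408 CPM. In its members S100a8 and S100a9 summed to 147 UMIs, of which 133 lay in 1 cell, and to 18, 27 and 69 in the others. Genes of these kinds are not read as a difference between the groups. Cell barcodes seen in more than 1 library numbered 5 in the mix, with 0 members among them, and 3 in the CD11b+ table, with 1 member.

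Nos2 and Inhba define the population, so their levels describe it and are not results. Nos2 had 245, 273, 310 and 360 CPM in mix members and 213 and 286 CPM in CD11b+ members. Inhba had 461, 371, 354 and 612 CPM in the mix and 671 and 661 CPM in CD11b+ members. Both transcripts were seen together in 145 of the 336 mix members, Nos2 alone in 98 and Inhba alone in 93. Cells with both made up 28.2%, 36.0%, 44.6% and 58.7% of the members of each mix library, the highest value in the deepest library. The 2 genes spread far beyond the rule, since mix members held 16.1% of the Nos2 UMIs and 21.3% of the Inhba UMIs of cells with at least 500 genes. Lyz2-positive cells with 2 or more UMIs of Mki67 and Top2a held 30.8% and 26.2%. Further Lyz2-positive cells, kept out by a UMI of P2ry12, Tmem119 or a Cd3 gene, held 28.9% and 24.95%.

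The limit on Nos2 and Inhba passed through a continuous range. Of the mix members 59 had exactly 2 UMIs of Nos2 and Inhba and 92 had 10 or more, and 129 cells with a single UMI stood just outside. Cells with few Lyz2 UMIs gave a measure of the background. Among 1783 mix cells with 2 or more UMIs of Cd3 genes and less than 5 of Lyz2, 8 cells, or 0.449%, had 2 or more UMIs of Nos2 and Inhba, at a median of 5979 UMIs, and among 16 such CD11b+ cells 0 had, at a median of 2588.5 UMIs. Other cells with less than 5 UMIs of Lyz2, of mixed kinds, had 2 or more UMIs of Nos2 and Inhba in 58 of 3262 (1.78%, median 5232 UMIs) in the mix and in 45 of 914 (4.92%, median 2349.5 UMIs) of the CD11b+ cells. By library the last share was 6.09% in CD11b+ shNC and 3.46% in CD11b+ shSELP. Members made up 3.24% and 5.32% of the CD11b+ Lyz2-positive myeloid cells. The share in cells with few Lyz2 UMIs lay above that of members in shNC and below it in shSELP. These shares are not alike, since members also had to pass limits of the rule that were not asked of the other cells. The order of the 2 shares is thus not read as a result. How much of the CD11b+ members is background at 2 UMIs was not tested. In CD11b+ members, the shallower set, 59 of 123 had exactly 2 UMIs.

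Macrophage genes were abundant in the members and monocyte genes were present at lower levels. All 12 genes of a macrophage list were detected in mix members, with Apoe at 14427, 13080, 17035 and 15892 CPM and C1qa at 3236, 3020, 2469 and 2766 CPM. All 10 genes of a monocyte list were detected too, with Plac8 at 1997, 1942, 2633 and 2064 CPM and Ly6c2 at 813, 1159, 1405 and 1511 CPM. Other lineages were low, in part by the rule itself. It allowed no UMI of Cd3e, Cd3d, Cd3g, P2ry12 or Tmem119 and at most 1 of Mki67 and Top2a summed. The sums for T and NK cells, microglia and the cell cycle thus partly repeat the rule. The genes of T and NK cells summed to 14.0, 25.1, 3.56 and 7.88 CPM, those of B and plasma cells to 64.0, 36.7, 8.91 and 8.53 CPM, and those of oligodendrocytes to 23.4, 30.9, 55.2 and 30.9 CPM. Tumor genes summed to 123, 61.9, 85.5 and 46.6 CPM, and microglia genes to 531, 520, 452 and 503 CPM. Neutrophil genes summed to 84.3, 76.4, 351 and 100 CPM, dendritic cell genes to 89.0, 42.5, 255 and 104 CPM, and vessel genes to 98.3, 151, 326 and 131 CPM, the highest each time in shSELP 1. Cell cycle genes, mostly Tubb5, summed to 364, 287, 224 and 289 CPM.

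In the CD11b+ table the same lists gave a like picture at lower depth. Macrophage genes summed to 26490 and 28090 CPM and monocyte genes to 3633 and 3764 CPM. Neutrophil genes summed to 463 CPM in shNC and 74.3 CPM in shSELP, and 64 of the 68 UMIs of S100a8 and S100a9 in shNC lay in 1 cell.

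F10 and Fpr2 were higher in the members, and Clec4e less evenly so. These are markers from the label, chosen with earlier results of these data known, so their levels describe the population and are not support for it. The comparison cells were Lyz2-positive macrophages with no UMI of Nos2 or Inhba, 494 in the mix and 1352 in the CD11b+ table. F10 had 161, 198, 221 and 256 CPM in mix members and 97.8, 138, 175 and 134 CPM in these cells, and in CD11b+ cells it had 232 and 249 CPM against 57.8 and 74.5 CPM. A UMI of F10 was seen in 40.8%, 57.0%, 48.2% and 66.1% of mix members. It was also seen in 33.1%, 42.8%, 42.3% and 45.1% of the mix comparison cells. Fpr2 had 70.2, 79.3, 103 and 89.3 CPM against 52.2, 37.2, 46.6 and 56.8 CPM, and was higher in CD11b+ members as well. Clec4e was higher in 5 of 6 libraries, and in shSELP 2 it had 435 CPM in members and 565 CPM in the comparison cells. Doublets were not called, and leaving out the deepest 5% of members stood in for that.

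The share of members among Lyz2-positive myeloid cells overlapped between the groups under the rule. Members were 71 of 430 such cells in shNC 1 (16.5%, exact 95% interval 13.1 to 20.4), 100 of 482 in shNC 2 (20.7%, 17.2 to 24.6), 56 of 285 in shSELP 1 (19.6%, 15.2 to 24.7) and 109 of 430 in shSELP 2 (25.3%, 21.3 to 29.7). The value of shSELP 1 lay between the 2 shNC values. The means were 18.6% ± 2.99 (SD, n = 2) for shNC and 22.5% ± 4.03 (SD, n = 2) for shSELP, with a two-sided exact permutation p of 0.667. With 2 libraries against 2 that test cannot go below 0.333. The difference of 3.87 percentage points was 1.02 without shSELP 2, 1.75 without shNC 1, 5.99 without shNC 2 and 6.72 without shSELP 1. With 3 or more UMIs of Nos2 and Inhba as the limit the shares were 13.3%, 16.0%, 16.1% and 22.6%, which no longer overlapped, with a difference of 4.73 and an exact permutation p of 0.333. With 1 or more UMIs the difference was 0.402, and with cells thinned to 2000 UMIs it was 0.498. Among all cells with at least 500 genes the shares were 3.25%, 4.59%, 2.56% and 5.01%, and the difference of the means was -0.135 points. In CD11b+ cells, members were 41 of 1265 in shNC (3.24%) and 82 of 1542 in shSELP (5.32%), without a test.

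**Figure D1:**
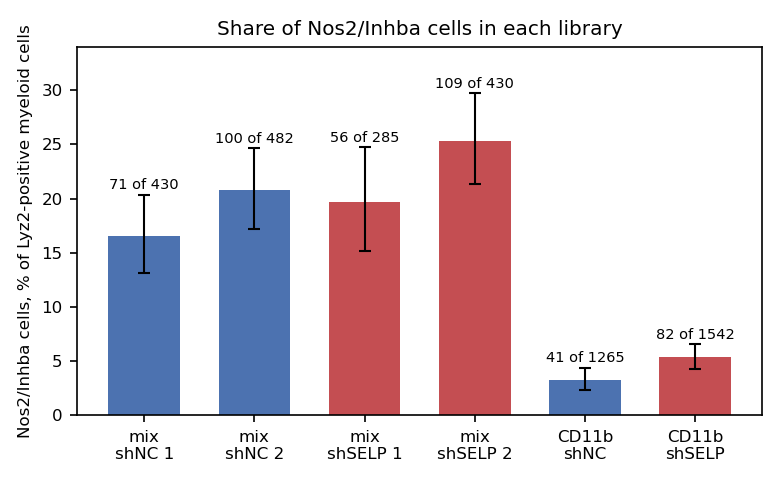
Bars give the share of members among Lyz2-positive myeloid cells in percent, 1 bar per library, with exact 95% intervals for counting error and the number of cells above each bar. The mix shSELP libraries, at 19.6% and 25.3%, overlapped the mix shNC libraries, at 16.5% and 20.7%.

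Set against macrophages without Nos2 or Inhba, the members carried an inflammatory, arginine-handling and glycolytic set of transcripts. Members and comparison cells came from the same libraries, were set apart by the rule and were not tested against each other, so these values are description. The median comparison cell had 7019, 7277, 6357.5 and 9490 UMIs in the mix, fewer than the median member of each library. In the CD11b+ table it had 4216 and 3616 UMIs, more than the median member. The part of depth in the ratios was not tested. Of 4533 genes compared, 263 (5.8%) were higher in members in all 6 libraries and 275 (6.07%) were lower in all 6, and the median log2 ratio was -0.01. Genes named here and further on outside the rule were chosen after their values were seen.

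Cytokine and prostaglandin genes were among the higher ones. Il1b had 10667, 9830, 11496 and 11886 CPM in mix members against 8725, 7007, 7080 and 7226 CPM in the comparison cells. Ptgs2, the gene of the inducible cyclooxygenase, had 1421, 1107, 1484 and 1386 CPM against 903, 663, 759 and 604 CPM, and 762 and 1208 CPM against 368 and 554 CPM in CD11b+ cells. Cxcl2 had 8505, 6494, 9836 and 8866 CPM against 6484, 4346, 5750 and 4362 CPM. Il1a, Il1rn, Il6 and Il23a were higher in all 6 libraries as well, so 6 of 14 inflammatory genes were, with a median log2 ratio of 0.65 in the list. Il1rn, which encodes the antagonist of the interleukin-1 receptor, was 1.79 times as high at the median library, so both the cytokines and their inhibitor were higher.

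Genes of nitric oxide and arginine were higher in the members as a whole. Of 8 genes of nitric oxide and arginine outside the rule, 6 were higher in all 6 libraries, among them Ass1, Slc7a2, Gch1, Slc7a11 and Sod2, and 0 were lower, with a median log2 ratio of 0.65. Slc7a2, an arginine transporter, had 114, 148, 121 and 144 CPM in mix members against 35.4, 28.2, 19.2 and 50.2 CPM. Ass1, which makes the precursor from which arginine is regenerated, had 303, 376, 502 and 586 CPM against 230, 290, 325 and 436 CPM. Slc7a11, a cystine transporter, was higher by 1.80-fold to 2.16-fold. The members thus carried transcripts for arginine uptake, arginine recycling and the synthase cofactor, whose enzyme Gch1 encodes.

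Glycolysis and hypoxia gave the broadest list. It had 14 of 17 genes higher in all 6 libraries and 0 lower, with a median log2 ratio of 0.51. The median folds were 1.74 for Slc2a1, 1.89 for Ndrg1, 1.98 for Bnip3, 1.59 for Slc16a3, 1.42 for Ldha and 1.37 for Aldoa. Hilpda had 306, 217, 242 and 265 CPM in mix members against 222, 143, 75.3 and 79.7 CPM. Whether these cells lay in tissue short of oxygen was not measured.

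Pattern receptors and coagulation genes followed with fewer members each. Clec4d, Clec5a, Fpr2, Tlr2, Cd14 and Trem1 were higher in all 6 libraries and Trem2 was lower in all 6, of 13 genes compared. F10, Plaur and Procr were higher and Thbs1 was lower, of 6 coagulation genes. Mmp12 was 2.13 times as high at the median library, though 1 cell held 19 of its 33 UMIs in shNC 1 and 43 of 79 in shNC 2, and Rgcc, Fbxl5, Tpi1 and AA467197 were higher in all 6 libraries, AA467197 at 1820, 2184, 2590 and 2302 CPM in mix members. Of 8 genes of the acute phase and complement, Cfb and C3 were higher, and Fth1 and Prdx5 were, of 11 genes of iron and oxidative stress. Ccl5 and Cxcl2 were higher and Ccl8, Ccl12 and Pf4 lower among 16 chemokines. Cd274, Ly6a and Ly6i were the interferon genes higher in all 6 libraries, 3 of 18.

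Transcripts of differentiated macrophages were lower in the members. Of 19 such genes 11 were lower in all 6 libraries and 0 were higher, with a median log2 ratio of -0.42. Comparison cells had to carry 2 or more UMIs of the macrophage genes Csf1r, Adgre1 and Fcgr1, and members did not. Members under that limit numbered 3, 4, 5 and 1 in the mix and 10 and 25 in the CD11b+ table. The part of this unequal limit in the lower values was not tested. Selenop had 142, 109, 126 and 78.8 CPM in mix members against 251, 143, 300 and 263 CPM. Cx3cr1 had 71.8, 51.3, 65.9 and 29.5 CPM against 170, 75.7, 108 and 60.1 CPM. The complement genes C1qa, C1qb and C1qc, Apoe, Ms4a7, Maf and Cd72 were lower too. Tmem176b had the lowest median among the genes named, at 1/2.34 of the comparison cells, and Cd81 and Timp2 stood at 1/2.00 each. Monocyte genes did not set the members apart, since of 12 genes of monocyte identity Klf4 was higher and Ifitm6 lower in all 6 libraries. Of 10 genes of proteases and matrix, Mmp12 was higher and Timp2, Ctsb and Ctsd were lower. Of 11 immediate early and heat shock genes, Hsp90aa1 was higher and Fos, Jun and Atf3 were lower. The lists of activin and TGF-beta signalling and of selectin ligands had 0 genes on 1 side in all 6 libraries, of 5 and 2 compared.

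**Figure D2:**
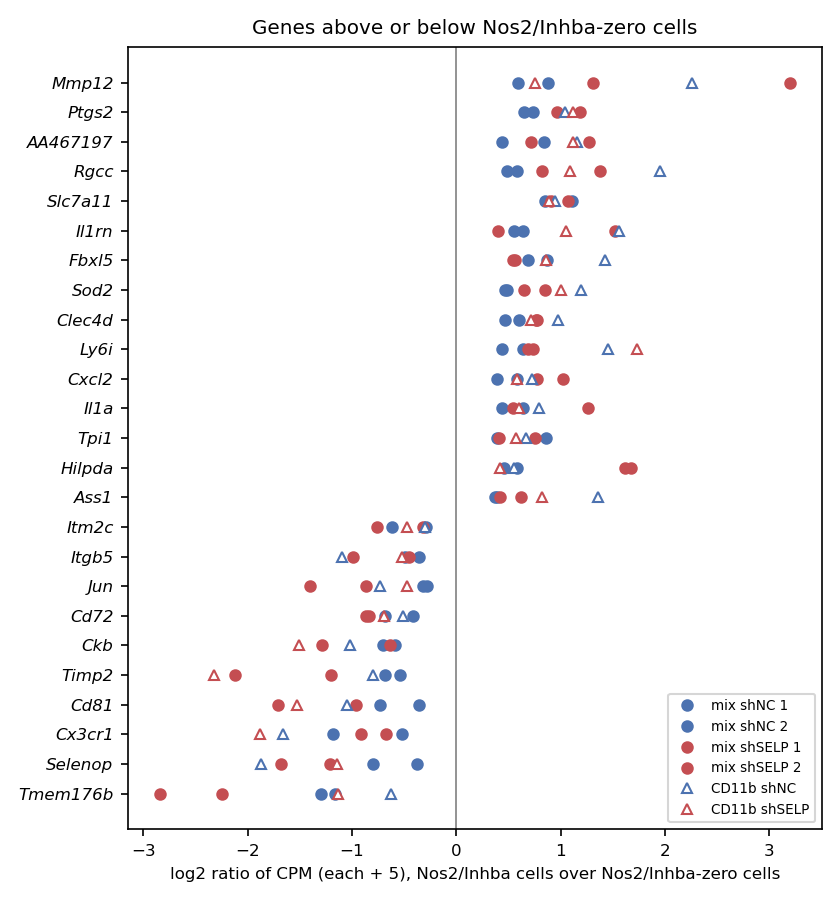
Points give the log2 ratio of CPM, with 5 added, in members over macrophages without Nos2 or Inhba, for 25 named genes in 6 libraries. Filled circles are the mix and open triangles the CD11b+ cells, shNC in blue and shSELP in red, and each of these genes lay on 1 side of 0 in all 6 libraries.

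Members with Nos2 alone and members with Inhba alone differed in several kinds of transcripts. In the mix, 21, 36, 15 and 26 members had Nos2 alone and 30, 28, 16 and 19 had Inhba alone. Their median depths were 8083, 8262.5, 10466 and 9832 UMIs and 6901, 7492.5, 7130.5 and 12723 UMIs. Of 4602 genes compared, 382 (8.3%) were higher in Nos2-only members in all 4 libraries and 323 (7.02%) in Inhba-only members, with a median log2 ratio of 0.02. With as few as 15 cells in a subset these are descriptions, and a difference between subsets was not tested.

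Nos2-only members had more of the macrophage and glycolytic transcripts. C1qa had 4097, 2906, 2897 and 3023 CPM in them against 2519, 2659, 1502 and 2394 CPM in Inhba-only members, and C1qb, C1qc, Mertk and Apoe were higher in all 4 libraries too. Of 18 genes of differentiated macrophages 8 were higher and 1 was lower. Slc2a1 had 296, 232, 410 and 236 CPM against 168, 170, 142 and 230 CPM, and Gapdh 1508, 995, 1097 and 1228 CPM against 784, 648, 501 and 1012 CPM, among 8 of 19 hypoxia genes higher with 0 lower. Ccl5 had 2589, 3563, 7780 and 7019 CPM against 1684, 1679, 4799 and 826 CPM. Ccl8 had 228, 185, 5.77 and 71.3 CPM against 12.9, 8.31, 0 and 0 CPM. Jun had 398, 370, 242 and 301 CPM against 228, 158, 142 and 84.1 CPM, with Fos, Egr1, Ier2, Dusp1 and Hspa1a also higher.

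Inhba-only members had more of another group of transcripts, with Vcan and Ms4a4c the genes of the monocyte list of 10 that were higher in all 4 libraries and 0 lower. Vcan had 90.4, 74.8, 41.7 and 14.6 CPM in them against 4.85, 2.76, 0 and 3.10 CPM in Nos2-only members. Ccl9 had 280, 183, 250 and 98.7 CPM against 102, 57.9, 17.3 and 37.2 CPM, and Ccl6 was higher with it. Clec4e had 1098, 590, 684 and 479 CPM against 373, 444, 502 and 446 CPM, higher in Inhba-only members in all 4 libraries though by little in shSELP 2. The markers F10 and Fpr2 did not lie on 1 side, with Nos2-only members higher in 1 and 3 of the 4 libraries. Il1rn had 1193, 993, 1903 and 884 CPM against 625, 711, 1229 and 791 CPM. Ms4a4c, Il6 and Irf7, each by little in shSELP 2, and Mefv, Gch1, Csf3r, Fcgr1, Cx3cr1 and Mmp19 were higher in Inhba-only members in all 4 libraries as well. Il1b and Cxcl2 did not lie on 1 side.

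**Figure D3:**
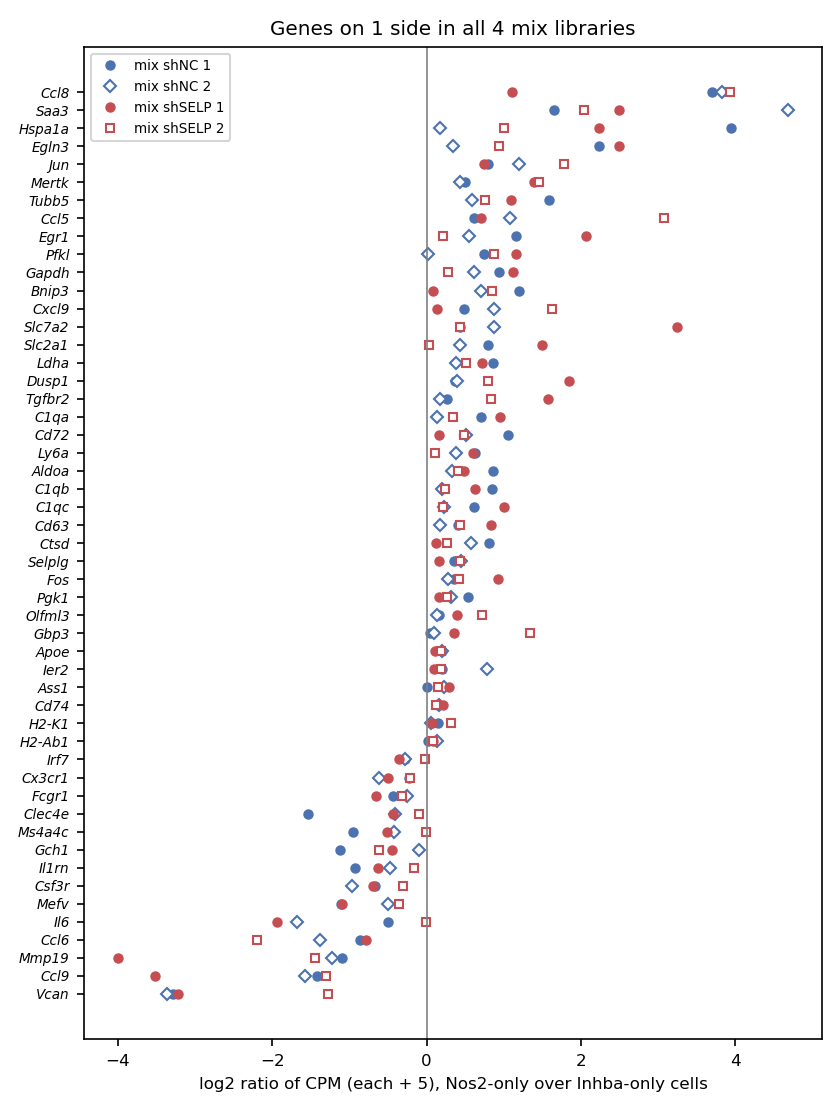
Points give the log2 ratio of CPM, with 5 added, in Nos2-only over Inhba-only members of the 4 mix libraries, for genes of the lists that lay on 1 side in all 4. Vcan, Ccl9 and Clec4e lay on the Inhba side, and Ccl8, Ccl5, Slc2a1 and C1qa on the Nos2 side.

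The shSELP members of the mix had less Ccl2 and Cd72 and more Ccl5, Ly6i and Cfb than the shNC members. These were few genes and stood at the edge of what 2 libraries per group resolve. edgeR called 0 of 6150 genes (0%) at an adjusted p under 0.05, with a lowest adjusted p of 0.0511 and 310 genes at an unadjusted p under 0.05. DESeq2 called 6 genes (0.0976%), with 69 at an unadjusted p under 0.05. By edgeR, leaving out 1 library gave 11 calls without shNC 1, 1 without shNC 2, 9 without shSELP 1 and 106 without shSELP 2.

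Ccl2, on chromosome 11 at 82035571 to 82037453 of mm10, encodes the main chemokine for monocytes. It had 913, 1054, 454 and 417 CPM in the members, so both shSELP libraries lay under both shNC libraries. The means were 984 ± 99.6 CPM and 436 ± 26.5 CPM (SD, n = 2 each). The log2 fold change was -1.14 (SE 0.15), with an adjusted p of 0.0511 by edgeR and 6.33e-05 by DESeq2. Members with a UMI of Ccl2 numbered 47 of 71, 63 of 100, 29 of 56 and 56 of 109. By subset, Nos2-only members had 592, 552, 537 and 512 CPM of Ccl2, nearly level between the groups. Inhba-only members had 1361, 1957, 651 and 358 CPM and members with both transcripts 727, 973, 313 and 401 CPM, so the lower values lay in members with Inhba. Inhba-only members made up 42.3%, 28.0%, 28.6% and 17.4% of the members, and the part of these shares in the difference was not tested. Without shSELP 1, the library that stood apart, the log2 fold change was -1.18 with an adjusted p of 0.0282 by edgeR, and over 18 alternatives the adjusted p ran from 1.72e-08 to 0.645. Ccl7, beside it at 82045712 to 82047525, had 726, 576, 328 and 207 CPM, with a log2 fold change of -1.28 and an adjusted p of 0.203 by edgeR and 0.00142 by DESeq2. Of its 465 UMIs in shNC 1, 176 lay in 1 cell, so that value rests in part on a single cell.

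Ccl5, on chromosome 11 at 83525778 to 83530518, encodes a chemokine for T cells and monocytes and went the other way. It had 2345, 2507, 5712 and 4096 CPM, again without overlap of the groups, and a log2 fold change of 1.05 (SE 0.15) with an adjusted p of 0.0556 by edgeR and 0.000188 by DESeq2. Ly6i, an interferon-inducible surface protein gene on chromosome 15 at 74979534 to 74983430, had 645, 620, 1202 and 1367 CPM, with a log2 fold change of 1.06 and an adjusted p of 0.0511 and 6.33e-05. Cfb, complement factor B on chromosome 17 at 34856374 to 34862518, had 120, 139, 305 and 301 CPM, with 1.25 and an adjusted p of 0.0511 and 0.00142. Cd72, an inhibitory receptor gene on chromosome 4 at 43446462 to 43454628, had 239, 190, 67.7 and 78.1 CPM, with -1.49 and an adjusted p of 0.0511 and 0.00142. In each pair of adjusted p edgeR comes first and DESeq2 next, and in each of these genes the groups did not overlap. Without shSELP 1 the log2 fold changes were 0.81 for Ccl5, 1.17 for Ly6i, 1.26 for Cfb and -1.38 for Cd72.

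**Figure D4:**
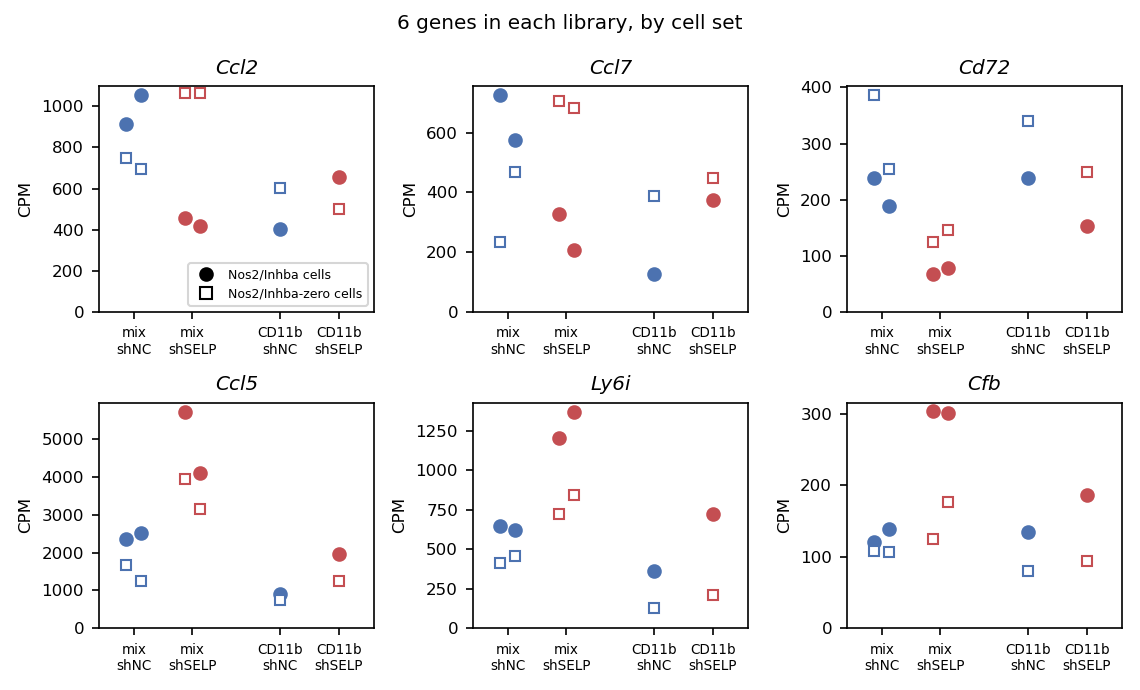
Each panel gives the CPM of 1 gene in the 4 mix and 2 CD11b+ libraries, shNC in blue and shSELP in red, filled circles for members and open squares for macrophages without Nos2 or Inhba. In the mix the circles of Ccl2 lay at 913, 1054, 454 and 417 CPM and its squares at 750, 697, 1066 and 1064 CPM.

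The difference between the groups in Ccl2 was not the same in members and in macrophages without Nos2 or Inhba. In the latter Ccl2 had 750, 697, 1066 and 1064 CPM, higher in both shSELP libraries, with a log2 fold change of 0.54 and an adjusted p of 0.395. The share of these cells with a UMI of Ccl2 was lower in both shSELP libraries, at 56.4%, 65.1%, 52.9% and 52.7%. In shSELP 2, 180 of their 974 UMIs of Ccl2 lay in 1 cell. The difference between the responses was -1.68 (SE 0.17), with an adjusted p of 0.00240 by edgeR, the 1 call among 7165 genes (0.014%), where 296 had an unadjusted p under 0.05. DESeq2 gave an adjusted p of 0.000300 for it. In 9 of 9 alternatives the value for Ccl2 stayed past the threshold, at -1.81 to -1.50 with an adjusted p of 3.61e-17 to 0.00812. Without shNC 1, shNC 2, shSELP 1 or shSELP 2 the number of calls was 3, 15, 8 or 12. Ccl7 had 233, 469, 704 and 680 CPM in the comparison cells, and its difference of -2.30 had an adjusted p of 0.0619 by edgeR and 1 by DESeq2. It was past the threshold in 7 of 9 alternatives, at -3.02 to -1.64, with an adjusted p that ran from 1.10e-25 to 1, so the call for Ccl7 depended on the setting. Without shSELP 1 the difference for Ccl2 was -1.74 and that for Ccl7 was -2.59, with an adjusted p of 0.00758 by edgeR for Ccl7. Without shNC 1, shNC 2 or shSELP 2 that of Ccl7 was -1.64, -3.02 or -1.94. In both shNC libraries the members had more Ccl2 than the comparison cells, and in both shSELP libraries less.

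Ccl5 had 1673, 1237, 3930 and 3156 CPM in the comparison cells and rose there, with a log2 fold change of 1.27 and an adjusted p of 0.0147 by edgeR. Its difference between the responses was -0.24, with an adjusted p of 1. Cd72 had 387, 254, 125 and 146 CPM there, with -1.24 and an adjusted p of 0.0768, and Ly6i had 413, 456, 722 and 844 CPM. Cfb had 108, 107, 125 and 177 CPM, with 0.49 and an adjusted p of 0.776. For Ly6i, Cfb and Cd72 the difference between the responses had an adjusted p of 1 by edgeR.

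By list, edgeR called 0 genes in each between shSELP and shNC members, where DESeq2 called 6 genes in all and 310 stood at an unadjusted p under 0.05 by edgeR. Over all 6150 genes, 917 (14.9%) were higher in both shSELP libraries than in both shNC libraries and 1362 (22.1%) were lower, with a median log2 fold change of -0.01. Of 19 genes of differentiated macrophages 9 were lower, among them Mrc1, C1qa, C1qc, Ms4a7 and Stab1, and 2 were higher, with a median of -0.21. Antigen presentation had 5 higher and 0 lower of 14, H2-Ab1, H2-D1, Tap1, Tapbp and Cd80, with a median of 0.19. Hypoxia and glycolysis had 5 higher and 0 lower of 19, at 0.16. Nitric oxide and arginine had 4 of 8 higher, among them Ass1, Odc1 and Sod2, and 0 lower, and Ass1 had 303, 376, 502 and 586 CPM with an adjusted p of 0.537 by edgeR. The acute phase and complement list had Slpi, Saa3, Lcn2 and Cfb higher, 4 of 9 with 0 lower.

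Among chemokines the counts were near those over all genes, with Ccl2, Ccl7, Ccl8 and Cxcl1 lower and Ccl5 and Cxcl2 higher of 17, at a median of -0.27. Pattern receptors had 6 higher and 3 lower of 14, with Trem1 at 161, 132, 239 and 247 CPM. Inflammatory genes had 3 higher, Il1b, Il6 and Tnfaip2, and Tnfaip3 lower, of 15. The interferon list had 2 higher and 2 lower of 19, and monocyte identity 3 higher and 1 lower of 12. Iron and oxidative stress had Fth1, Prdx5 and Cybb higher of 11, and Fth1 had 31092, 32797, 39375 and 44302 CPM with an adjusted p of 0.275 by edgeR. Coagulation had 3 higher and 1 lower of 10, proteases and matrix 2 higher and 3 lower of 13, and immediate early and heat shock 2 and 2 of 12. Activin and TGF-beta genes had 0 higher and 1 lower of 6. Selplg and St3gal4 were the 2 of 3 selectin ligand genes that were higher. For Selplg shSELP 2 was nearly level with shNC 2, at 120.8 and 119.9 CPM. In CD11b+ members it was lower in shSELP, at 63.2 CPM against 67.1 CPM in shNC. The counts by list were not put to a test, and how many such genes chance gives was not tested.

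CD11b+ members gave a second view with 1 library per group, where each ratio of shSELP to shNC has an exact 95% interval for counting error only. Of 588 genes with at least 100 UMIs, 56 (9.52%) had a ratio of 1.5 or more and 35 (5.95%) of 1/1.5 or less, and the median ratio was 0.948. Ccl5 stood at 908 and 1969 CPM, a ratio of 2.17 (1.80 to 2.62), and Ly6i at a ratio of 2.00 (1.49 to 2.73). C3, the central complement protein gene, had 195 and 568 CPM, a ratio of 2.91 (1.98 to 4.41), which was 4.64 with 3 or more UMIs of Nos2 and Inhba as the limit. In mix members, unlike Ccl5 and Ly6i, C3 overlapped between the groups in CPM. It had 241, 338, 209 and 623 UMIs there, of 640589, 1034132, 561426 and 1523535 UMIs in all. The CD11b+ comparison cells held 2769020 UMIs in shNC and 2778068 in shSELP. Of these, 497 and 1038 were of C3, 2100 and 3488 of Ccl5, and 355 and 593 of Ly6i. C3, Ccl5 and Ly6i were thus higher in shSELP outside the members too. The chaperone genes Dnaja1, Hsp90b1 and Hsp90aa1 had ratios of 3.09, 2.34 and 2.10. Which of these would hold between further libraries was not testable.

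Ccl2 and Ccl7 were higher in CD11b+ shSELP members. Ccl2 had 402 and 658 CPM, a ratio of 1.63 (1.23 to 2.20), while the macrophages without Nos2 or Inhba had 603 and 501 CPM, a ratio of 0.831 (0.773 to 0.893). Both directions were opposite to those of the mix, and the difference between the mix and the CD11b+ table was not tested. With 1 or more UMIs of Nos2 and Inhba as the limit, the ratio of Ccl2 in members was 0.862, so its direction rested on the limit. Ccl7 had 128 and 375 CPM from 21 and 101 UMIs, a ratio of 2.93 (1.82 to 4.94). That ratio was 1.14 with 1 or more UMIs and 1.80 with 3 or more.

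Cebpb, a transcription factor of myeloid cells, was lower in CD11b+ shSELP members, at 1938 and 691 CPM, a ratio of 0.356 (0.296 to 0.429). It was lower in the comparison cells too, at 1390 and 578 CPM, and over all CD11b+ cells with at least 500 genes, at 1270 and 512 CPM, so this was a difference of the whole library. Cst3 had 2981 and 1501 CPM, a ratio of 0.504 (0.440 to 0.576), whereas in the mix it had 1989, 2286, 2333 and 2563 CPM. Mt1, Rgs10 and Rbm3 had ratios of 0.489, 0.491 and 0.506, but that of Rgs10 was 0.809 with 1 or more UMIs of Nos2 and Inhba as the limit and that of Mt1 0.217 with 3 or more. Osm had 408 and 197 CPM, Cd9 695 and 316 CPM, and Chil3 646 and 331 CPM, and the ratio of Chil3 was 1.20 with 3 or more UMIs of Nos2 and Inhba as the limit. By list, proteases and matrix had 3 of 6 genes at a ratio of 1.5 or more, inflammatory genes 4 of 10 with 1 at 1/1.5 or less, chemokines 4 of 11 with 1, and monocyte identity 0 of 7 with 3. Antigen presentation had 2 of 12 with 1, and interferon genes 2 of 8 with 0.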

How the data were processed

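The authors aligned reads with Cell Ranger 1.3 to mm10 and deposited UMI counts per gene and cell as whole numbers, without normalization. The mix listed 20300 genes and the CD11b+ table listed 14363, columns that matched no library numbered 0, and the tables were handled apart. Cells under 500 genes were left out, 446 of the mix and 189 of the CD11b+ table, and 0 cells had over 10% mitochondrial counts. Coordinates came from GENCODE M21.

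Comparison cells met the rule for members except for Nos2 and Inhba. They also needed 2 or more UMIs of Csf1r, Adgre1 and Fcgr1, none of Retnlg and Cxcr2 and none of Flt3, Xcr1 and Ccr7. The members and the gene lists were chosen with earlier results of these data known. A further limit of the rule for members, and what rests on it, is not reported here.

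UMIs were summed per library over members or comparison cells. The main test was the quasi-likelihood F test of edgeR 4.0.16 after filterByExpr and TMM scaling, and the alternative was DESeq2 1.42.0, both in R 4.3.3. The difference in response was an interaction term with library as a block. Benjamini-Hochberg adjusted p under 0.05 counted as called. Ratios between sets of cells used CPM plus 5 and genes whose mean reached 20.0 CPM, and CD11b+ ratios needed 100 UMIs. Intervals are exact Clopper-Pearson 95% intervals of counting error.

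Genes of the lists and the label could be named at any value. Other genes had to be among the most extreme. In members against the Nos2- and Inhba-free cells these were the 15 highest and 10 lowest by the least extreme of the 6 ratios, at a mean of 100 CPM in both tables. To these came up to 10 called genes per direction in the mix, 8 ratios per direction in CD11b+ cells, and 5 called genes per direction of the difference in response.

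The tests were tested on simulated data. Cells were handled with pandas 2.3.3, scipy 1.17.1 and numpy 2.4.6 under Python 3.11.15, and plots drawn with matplotlib 3.10.9.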

Additional observations from a re-analysis of the deposited data

Results flagged for a closer look

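The difference between shSELP and shNC in Ccl2 was not the same in members and in macrophages without Nos2 or Inhba of the mix. The log2 difference between the responses was -1.68, from 913, 1054, 454 and 417 CPM in members and 750, 697, 1066 and 1064 CPM in the comparison cells. It was picked out by a test of the difference itself, with an adjusted p of 0.00240 by edgeR.

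Ccl2 and Ccl7 were lower in both shSELP libraries of the mix and higher in the shSELP library of the CD11b+ members. Their CD11b+ ratios were 1.63 for Ccl2 and 2.93 for Ccl7. With 1 or more UMIs of Nos2 and Inhba as the limit they were 0.862 and 1.14, and with 3 or more that of Ccl7 was 1.80. Cst3 had 1989, 2286, 2333 and 2563 CPM in the mix, higher in both shSELP libraries, and a CD11b+ ratio of 0.504. For these genes both shSELP libraries of the mix lay on 1 side of both shNC libraries and the CD11b+ pair lay the opposite way, and this difference was not tested. The mix and the CD11b+ cells also differed in sorting, day and depth, so these cannot be told apart.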

How the results depend on the processing

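Calls between shSELP and shNC members, 0 by edgeR, grew under most alternatives. There were 6 with DESeq2, 73 without the filter on low counts and 6 with 3 or more UMIs of Nos2 and Inhba. Counting Nos2 and Inhba per 10,000 UMIs gave 5, the gate of the comparison cells 4, thinning to 2000 UMIs 11 and leaving out the deepest 5% of members 5. With 1 or more UMIs the number stayed 0. The limit on mitochondrial counts left out no cell and so could not change a value. Of 2 alternatives chosen after seeing the data, leaving out members with 2 or more UMIs of vessel genes gave 7 and leaving out those with 10 or more of S100a8 and S100a9 gave 0. Leaving out 1 library gave 1 to 106 calls, 11 without shNC 1, 1 without shNC 2, 9 without shSELP 1 and 106 without shSELP 2, where the lone library of a group was assumed to vary like the others. The cause was not tested.

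A replicate block gave 33 calls. Libraries of the same number were not paired in these data, since their deviations from the group means correlated at 0.0719 over 6154 genes, so that value carries little weight.

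For the difference in response, 1 call became 34 without the filter and 3 with the gate, and 7 without the members with vessel genes, chosen after seeing the data. Leaving out 1 library gave 3 to 15 calls, 3 without shNC 1, 15 without shNC 2, 8 without shSELP 1 and 12 without shSELP 2. DESeq2 and the limit of 3 UMIs gave 1. Ccl2 was past the threshold in 9 of 9 alternatives and Ccl7 in 7 of 9.

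The difference in shares, 3.87 points, was -0.135 with all cells of at least 500 genes as the denominator, 0.402 with 1 or more UMIs, 4.73 with 3 or more, 0.498 with cells thinned to 2000 UMIs, 1.75 without shNC 1, 5.99 without shNC 2, 6.72 without shSELP 1 and 1.02 without shSELP 2. CD11b+ genes beyond 1.5 in either direction, 91, numbered 205 with 1 or more UMIs and 50 with 3 or more, where fewer cells leave fewer genes over 100 UMIs. TMM gave 104 and the gate 75.

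Among genes named, the CD11b+ ratio of Chil3 turned to 1.20 with 3 or more UMIs and that of Ccl2 to 0.862 with 1 or more, and the cause was not tested. The CD11b+ ratio of Ccl7 was 1.14 with 1 or more UMIs and 1.80 with 3 or more, that of Rgs10 0.809 with 1 or more, and those of Mt1 and C3 0.217 and 4.64 with 3 or more, among 9 values that moved without changing direction. Of the 18 alternatives for shSELP against shNC, the void one on mitochondrial counts included, Ccl5 and Ly6i were past the threshold in 13, Ccl2 and Cfb in 12, Cd72 in 9 and Ccl7 in 8. Depth was a limit in the CD11b+ members, with medians of 4002 and 2868 UMIs.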

Other observations

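Plet1 was seen in members of the shSELP libraries alone, at 0, 0, 17.8 and 25.6 CPM in the mix. Its counts came largely from single cells, 9 of 10 UMIs in shSELP 1 and 26 of 39 in shSELP 2 lying in 1 cell each, and its adjusted p was 0.0556 by edgeR and 0.0521 by DESeq2. Ccr7 had 17, 14, 93 and 45 UMIs in mix members, and 41 of the 93 in shSELP 1 lay in 1 cell. The highest sum of Nos2 and Inhba in a member was 116 UMIs in the mix and 13 in the CD11b+ table.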
